A study of Mus musculus with 20 samples.

Results

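Ky is a single gene (ENSMUSG00000035606), 1 of 48795 genes in the table of the whole series, and it was chosen because it was lower in both mouse strains, that is, selected on its values in mutant and WT hearts. It lies on the plus strand of mouse chromosome 9, from 102505755 to 102546247 in GRCm38, and no other annotated gene overlaps it. The differences between mutant and WT hearts chose the gene, so they are given here as a description with no test. RNA was sequenced from whole hearts of E13.5 mouse embryos on the C57BL/6J background, 20 in all, with 5 hearts in each of 4 groups. Dp3Tyb embryos carry an extra copy of a segment of mouse chromosome 16 that is orthologous to part of human chromosome 21. Ts1Rhr embryos carry an extra copy of a shorter segment inside it, and the controls of either strain were its WT littermates (labelled wt_d and wt_t), which have the usual copies. Dyrk1a, the kinase gene on which the work centres, lies in both segments, and Ky lies in neither. The strains are germline models, so every cell of the heart carries the extra segment. Of the 5 Ts1Rhr hearts, replicates 1 and 2 carry a label of heart defects and the other 3 a label of none, and all 5 were kept as 1 group. In the study the strain is presented as lacking such defects.

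KY, the kyphoscoliosis peptidase, is a muscle protein with a transglutaminase-like domain. It sits at the Z-disc, where the actin filaments of neighbouring sarcomeres are anchored, and it is known to bind the actin crosslinker filamin C and the sarcomeric proteins IGFN1, titin and slow myosin binding protein C. Loss of Ky causes a degeneration of postural skeletal muscle with curvature of the spine in the mouse, and the gene is known much better from skeletal muscle than from the heart.

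The canonical Ky transcript of the GENCODE vM39 annotation has 11 exons and 5840 bases, of which 1983 are coding (661 codons), and 3461 form a long 3′ UTR in the last exon. The coding part of the first exon is printed to show the start of the reading frame whose RNA was counted, with the start codon in capitals and the remaining bases in lower case, 5′ to 3′:
Ky: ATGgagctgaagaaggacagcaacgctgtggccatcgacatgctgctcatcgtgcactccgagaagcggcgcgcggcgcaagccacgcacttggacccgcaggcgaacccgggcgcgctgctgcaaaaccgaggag

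The libraries held 6600839 to 19634514 reads assigned to genes. The share of reads from mitochondrially encoded genes ran from 4.85% to 19.5%, and 7 libraries were above 10%, at least 1 in every group. Values below are normalised reads, that is reads divided by the library's size factor. The cardiomyocyte markers fitted the labelled tissue, with all 18 passing the filter on low values (at least 10 in at least 5 libraries of a comparison). Dyrk1a was 2403 to 3196 normalised reads in Dp3Tyb and 1692 to 2287 in their littermates. In the other cohort Dyrk1a was 2413 to 2759 in Ts1Rhr and 1740 to 2339 in littermates. In each cohort the mutant hearts were all above WT for Dyrk1a, a separation seen in 0.501% of genes tested in Dp3Tyb and 0.619% in Ts1Rhr.

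Ky was a low to middling transcript in WT hearts. Over the 10 WT hearts it averaged 20.9 normalised reads per kb of exon, above 29.1% of the 15217 genes ranked, and the median gene had 52.8 on the same scale. In whole reads, 1884 reads came from Ky over all 20 libraries, 36 to 223 in a single heart, so the counting error of 1 heart was 6.70% to 16.7% of its value. Reads without molecular identifiers may include PCR copies, so all counting intervals given here cover counting error only.

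In the WT littermates of Dp3Tyb the 5 hearts (replicates 1 to 5 in turn) had 112, 156, 105, 132 and 141 normalised reads of Ky, from 97, 205, 136, 177 and 48 whole reads. In Dp3Tyb they had 44.3, 78.2, 56.8, 49.9 and 50.4, from 52, 100, 67, 69 and 36 reads. Every Dp3Tyb heart lay below every littermate, and the gap between the groups was 26.9 normalised reads. Such a separation, mutants below WT, was seen in 70 of the 14763 genes tested (0.474%). The mean of Ky was thus 55.9 ± 13.2 in the mutants and 129 ± 20.8 in WT (SD, n = 5 each), or 43.2% of the WT mean. On the log2(value + 1) scale the change was -1.21 ± 0.17 (SE), and 6 of the genes tested, Ky included, changed by this much or more downwards (0.0406%). The hearts that came closest were Dp3Tyb replicate 2, at 78.2 with a 95% exact Poisson interval of 63.7 to 95.2, and WT replicate 3, at 105 with an interval of 88.2 to 124, so the counting intervals of these neighbours overlapped.

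In the WT littermates of Ts1Rhr the values were 112, 81.4, 100.3, 105 and 180.3, from 104, 75, 112, 55 and 223 whole reads. In Ts1Rhr they were 70.7, 68.3, 52.4, 49.0 and 60.7, from 59, 70, 59, 57 and 83 reads. The groups again did not overlap, but the gap was narrower, 10.7 normalised reads, and 74 of 14867 genes (0.498%) showed the same separation. The means were 60.2 ± 9.52 in Ts1Rhr and 116 ± 37.8 in WT (SD, n = 5 each), and the mutant mean was 51.9% of the WT mean. The log2 change was -0.90 ± 0.20 (SE), and 81 of the genes tested (0.545%) fell as far. WT replicate 5 stood apart at 180.3, with an interval of 157 to 206. Without it the log2 change was -0.72. WT replicate 2, the lowest WT heart at 81.4 (64.0 to 102), and Ts1Rhr replicate 1, the highest mutant at 70.7 (53.8 to 91.1), had overlapping counting intervals.

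**Figure D1:**
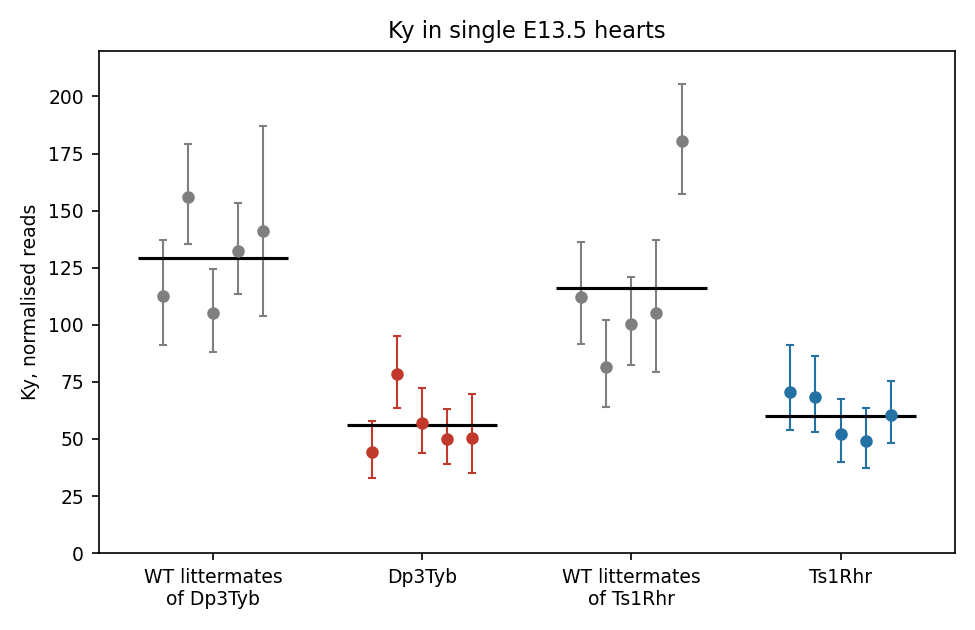
Ky in normalised reads for each of the 20 hearts, by group. Points are single hearts with 95% exact Poisson intervals for counting error, and horizontal lines are group means. All 5 Dp3Tyb hearts (44.3 to 78.2) lie below their littermates (105 to 156), and all 5 Ts1Rhr hearts (49.0 to 70.7) lie below theirs (81.4 to 180.3).

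The separation was also there without size factors. As plain reads per 1000000 reads, Ky was 44.4% of WT in Dp3Tyb, with the lowest WT heart at 7.27 and the highest mutant heart at 5.43. In Ts1Rhr it was 53.0% of WT, with the lowest WT heart at 5.09 and the highest mutant heart at 4.34. The spread between hearts was above counting error in every group, but it rests on 5 hearts a group and the excess was not tested. Its SD was 1.60 times the counting SD in the WT littermates of Dp3Tyb, 1.86 times in Dp3Tyb, 3.32 times in the WT littermates of Ts1Rhr and 1.26 times in Ts1Rhr. The widest group was thus the one that holds the heart at 180.3.

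Ordered by their means, the groups ran from the WT littermates of Dp3Tyb (129) and of Ts1Rhr (116) to Ts1Rhr (60.2) and Dp3Tyb (55.9). The neighbours in this order overlapped, except WT of Ts1Rhr and Ts1Rhr. The rule used the values of both WT groups, so the difference between these groups is given as a description with no test. The WT littermates of Ts1Rhr differed from those of Dp3Tyb by -0.19 ± 0.20 on the log2 scale (SE). Over the 14779 genes of that contrast limma called 0, with 677 (4.58%) at an unadjusted p below 0.05, edgeR called 0 and DESeq2 called 19. The change in Dp3Tyb minus that in Ts1Rhr was -0.31 ± 0.27 (SE), a difference only slightly larger than its SE.

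Fewer cardiomyocytes and less Ky RNA per cardiomyocyte cannot be told apart in RNA of whole hearts. The markers of cardiomyocytes, the main muscle cell of the organ, are therefore given beside Ky. Their sum was 404768 to 561610 normalised reads in Dp3Tyb and 471641 to 650773 in littermates. It was 464018 to 626213 in Ts1Rhr and 508691 to 591038 in littermates, so the groups overlapped in both cohorts. Of the 18 markers 14 were lower in Dp3Tyb, with a median log2 change of -0.09, and 10 were lower in Ts1Rhr, with a median of -0.02. The median of all genes tested was -0.00 in each cohort. Limma, DESeq2 and edgeR called 0 of the 18 in either strain, where limma called 0.0542% of all genes in Dp3Tyb and 0.0269% in Ts1Rhr. At an unadjusted limma p below 0.05 was 1 of the 18 in Ts1Rhr, Ryr2, against 5.52% of all genes, and 0 in Dp3Tyb, against 2.8%.

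Per 1000000 normalised reads of these markers, Ky averaged 111 ± 24.8 over the Dp3Tyb hearts and 237 ± 25.5 over their littermates (SD, n = 5 each). Mutant hearts ranged from 87.3 to 147 and WT hearts from 214 to 278, and the log2 change was -1.12 ± 0.16 (SE). In the other cohort the ratio was 111 ± 19.0 in Ts1Rhr (83.7 to 131) and 213 ± 73.8 in WT (145 to 336), a log2 change of -0.90 ± 0.23. The groups did not overlap on this scale either, and the log2 changes of Ky by itself were -1.21 and -0.90. The ratio uses the values for which Ky was chosen, so it is a description with no test. Whether the number of cardiomyocytes has a part in the difference was not tested.

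**Figure D2:**
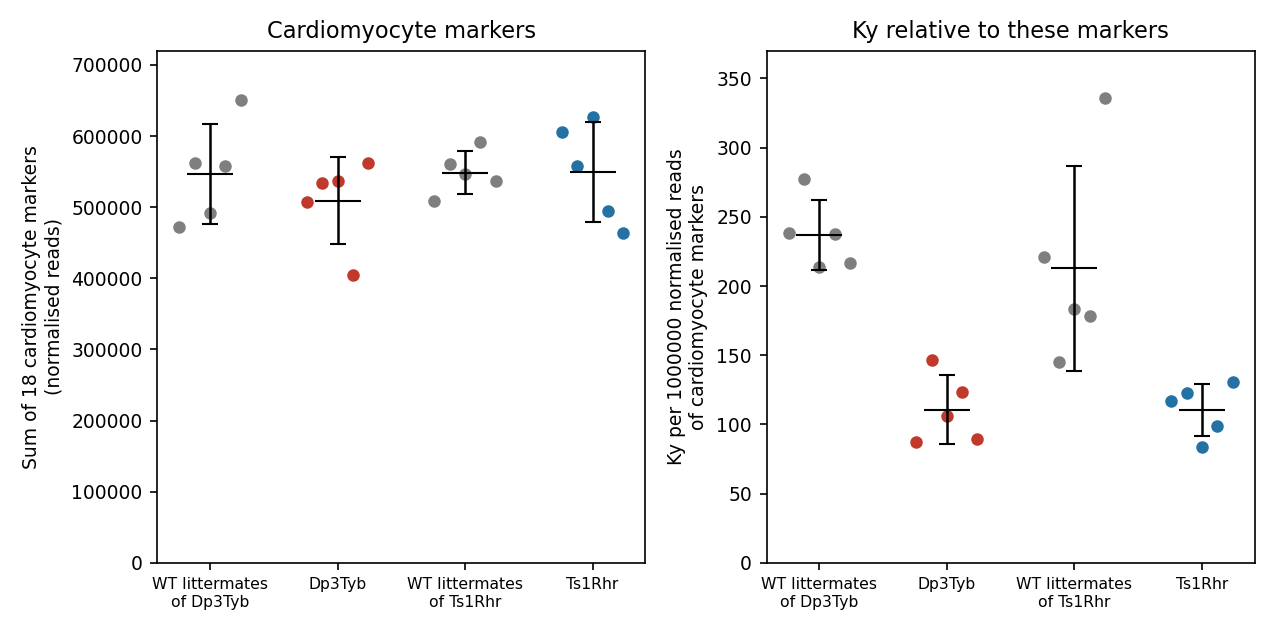
Left, the sum of 18 cardiomyocyte markers in normalised reads, and right, Ky per 1000000 normalised reads of these markers. Points are single hearts, horizontal marks are means and bars are SD (n = 5 per group). The marker sums overlap between mutant and WT hearts, and the ratio does not (87.3 to 147 against 214 to 278, and 83.7 to 131 against 145 to 336).

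Skeletal muscle was looked for because Ky is known from it. The myogenic regulator Myod1 had 56 reads over the 20 libraries and was at 0 in 5 of them. Of the 20 skeletal muscle markers 11 passed the filter for Dp3Tyb and 10 for Ts1Rhr, and 0 were called in either by limma, DESeq2 or edgeR, with 0 at an unadjusted limma p below 0.05. Limma called 0.0542% of all genes in Dp3Tyb and 0.0269% in Ts1Rhr, and 2.8% and 5.52% had an unadjusted p below 0.05. Several of the markers that passed, among them Ckm, the muscle creatine kinase, are also made by heart muscle. WT replicate 1 of the Dp3Tyb cohort stood apart in these genes. It had 931 normalised reads of Myh3, the embryonic skeletal myosin heavy chain, where no other heart was above 77.4, and 23.2 of Myod1, where no other was above 10.9. Ky in this heart was 112, the second lowest of its group. Without this heart the log2 change of Ky in Dp3Tyb was -1.26. The sum of the skeletal muscle markers ran from 1613 to 3519 in the WT littermates of Dp3Tyb, 1233 to 2107 in Dp3Tyb, 1351 to 3250 in the WT littermates of Ts1Rhr and 1486 to 2037 in Ts1Rhr. Much of this sum was Ckm, at 722 to 2744 normalised reads per heart, the highest in WT replicate 5 of the Ts1Rhr cohort. The sums are therefore no measure of skeletal muscle by itself.

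The proteins that KY binds were next compared at the RNA level. Per kb of exon, WT hearts had 940 normalised reads of Flnc (filamin C), 130 of Ttn (titin), 17.6 of Mybpc1 (slow myosin binding protein C) and 0.19 of Igfn1, beside 20.9 of Ky. Igfn1 had 40 reads in all and did not pass the filter. The other 3 partners passed and none was called, in fits that called 0.0542% of genes in Dp3Tyb and 0.0269% in Ts1Rhr. At an unadjusted p below 0.05, and by DESeq2 and edgeR, 0 of the 3 passed as well. Over all genes 2.8% in Dp3Tyb and 5.52% in Ts1Rhr had such an unadjusted p.

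Flnc had 8884 ± 1315 normalised reads in Dp3Tyb and 9527 ± 1745 in littermates (SD, n = 5 each), a log2 difference of -0.09 ± 0.15. In Ts1Rhr it had 9220 ± 1347 against 8629 ± 1446, a difference of 0.10 ± 0.13. Mybpc1, the partner closest to Ky in level per kb, had 108 ± 18.3 in Dp3Tyb against 141 ± 39.5, a log2 difference of -0.35 ± 0.19. In Ts1Rhr it had 114 ± 19.4 against 130 ± 7.58, a difference of -0.21 ± 0.13. The log2 difference of Ttn was -0.22 ± 0.15 in Dp3Tyb and -0.46 ± 0.24 in Ts1Rhr. The mutant and WT hearts overlapped for each of these partners in both cohorts.

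The genes that turn over damaged filamin C, among them the co-chaperone Bag3, the small heat shock proteins Hspb8, Hspb7, Hspb1 and Cryab, the chaperone Hspa8, the ubiquitin ligase Stub1 and the autophagy adaptor Synpo2, all passed the filter with the filamin binding repeat proteins Xirp1 and Xirp2 (10 of 10). None was called in either strain by limma, DESeq2 or edgeR, and 0 had an unadjusted limma p below 0.05. Limma called 0.0542% of all genes in Dp3Tyb and 0.0269% in Ts1Rhr, and 2.8% and 5.52% had an unadjusted p below 0.05. The log2 differences of the 10 list genes ran from -0.17 to 0.17 in Dp3Tyb (median -0.03) and from -0.18 to 0.15 in Ts1Rhr (median 0.02). Bag3 differed by 0.09 ± 0.13 in Dp3Tyb and by 0.01 ± 0.09 in Ts1Rhr (SE).

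Of 15 Z-disc genes 14 passed, and Myot (myotilin) had only 42 reads in all. None was called by any of the 3 tools, and 0 had an unadjusted limma p below 0.05. Limma called 0.0542% of all genes in Dp3Tyb and 0.0269% in Ts1Rhr, and 2.8% and 5.52% had an unadjusted p below 0.05. In Dp3Tyb 13 of the 14 were lower, with a median log2 difference of -0.10, and in Ts1Rhr 6 were lower, with a median of 0.02. The differences ran from -0.26, for the nebulin related Nrap, to 0.11, for Pdlim3, in Dp3Tyb. In Ts1Rhr they ran from -0.16 (Myoz2, a calcineurin binding Z-disc protein) to 0.18 (Pdlim3). The changes of Ky itself, -1.21 and -0.90, for which it was chosen, were outside both ranges.

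Of 10 genes with a transglutaminase or transglutaminase-like fold 4 passed, and the other 6, all of them Tgm genes, were too low. None of the 4 was called by any tool, where limma called 0.0542% of all genes in Dp3Tyb and 0.0269% in Ts1Rhr. The tissue transglutaminase Tgm2 differed by -0.03 ± 0.12 in Dp3Tyb and by 0.13 ± 0.10 in Ts1Rhr. F13a1, the coagulation factor XIII A chain, which macrophages make, differed by 0.36 ± 0.18 and 0.39 ± 0.12 (limma adjusted p = 0.795 in Ts1Rhr, 1 of 4 members with an unadjusted p below 0.05, against 5.52% of all genes). The peptide N-glycanase Ngly1 differed by -0.01 ± 0.07 and -0.02 ± 0.10, and the erythrocyte protein 4.2 gene Epb42 by 0.31 ± 0.36 and 0.05 ± 0.37.

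**Figure D3:**
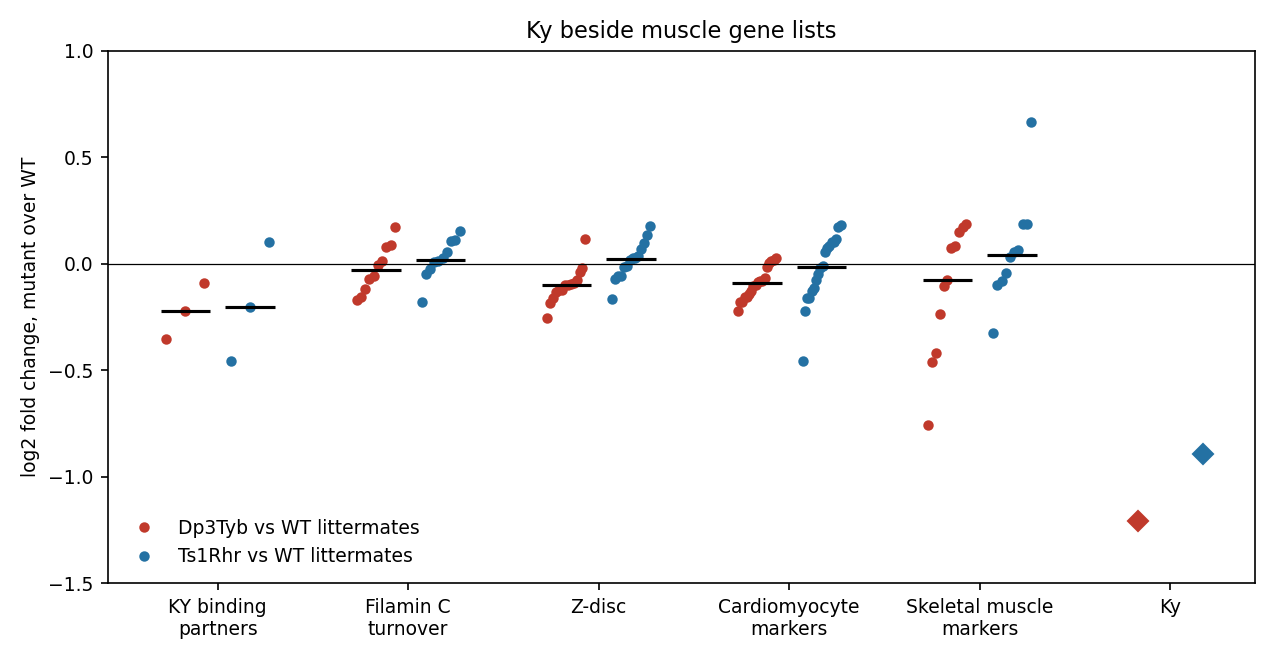
Log2 fold changes, mutant over WT littermates, of the members of 5 muscle gene lists that passed the filter, with Ky at the right. Points are genes, red for Dp3Tyb and blue for Ts1Rhr, and black lines are list medians, which lie between -0.22 and 0.04. Ky, at -1.21 and -0.90 (diamonds), was chosen for its low values and lies below every listed gene in both strains.

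The genes around Ky were measured to see whether the low values reached beyond it. RefSeq places 34 genes within 1 Mb of either end of Ky, 22 of which were matched in the table, and 12 passed the filter. Limma called 0 of the 12 in either strain, as did DESeq2 and edgeR, where limma called 0.0542% of all genes in Dp3Tyb and 0.0269% in Ts1Rhr. An unadjusted p below 0.05 was seen for 1 of the 12 in each strain, and for 2.8% of all genes in Dp3Tyb and 5.52% in Ts1Rhr. The median log2 difference of the 12 was 0.01 in Dp3Tyb and -0.02 in Ts1Rhr, and 6 were lower and 6 higher in each.

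The nearest genes downstream, Gm7364 at 5385 bases and Gm29387 at 13040 bases, had 0 reads in every library. The nearest with reads was Cep63, a centrosomal protein gene 40331 bases downstream, which differed by -0.06 ± 0.12 in Dp3Tyb and by -0.13 ± 0.09 in Ts1Rhr. Anapc13, a subunit of the anaphase promoting complex at 80049 bases, differed by 0.04 ± 0.28 and -0.22 ± 0.17. Upstream the only gene that passed was Ephb1, an ephrin receptor 151062 bases away, with 0.53 ± 0.25 in Dp3Tyb and -0.05 ± 0.22 in Ts1Rhr. None of these differences was called, and those nearest to Ky were small beside its own.

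Farther away, Topbp1, which acts in DNA replication, lay 758920 bases downstream. Its 5 Dp3Tyb hearts (2015 to 2240 normalised reads) were below the 5 littermates (2246 to 2707), with a log2 difference of -0.20 ± 0.06 (limma adjusted p = 1.0). It was the only 1 of the 12 neighbours whose groups did not overlap in Dp3Tyb, and 0 of the 12 did so in Ts1Rhr. Over all genes tested, 0.474% lay below and 0.501% above without overlap in Dp3Tyb, and 0.498% and 0.619% in Ts1Rhr. Trf (transferrin), at 662629 bases, differed by 0.42 ± 0.16 in Ts1Rhr (limma adjusted p = 0.795) and by 0.16 ± 0.28 in Dp3Tyb. Amotl2, Ryk, Slco2a1, Rab6b, Srprb, Cdv3 and Tmem108 differed by -0.06 to 0.19 over both strains.

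**Figure D4:**
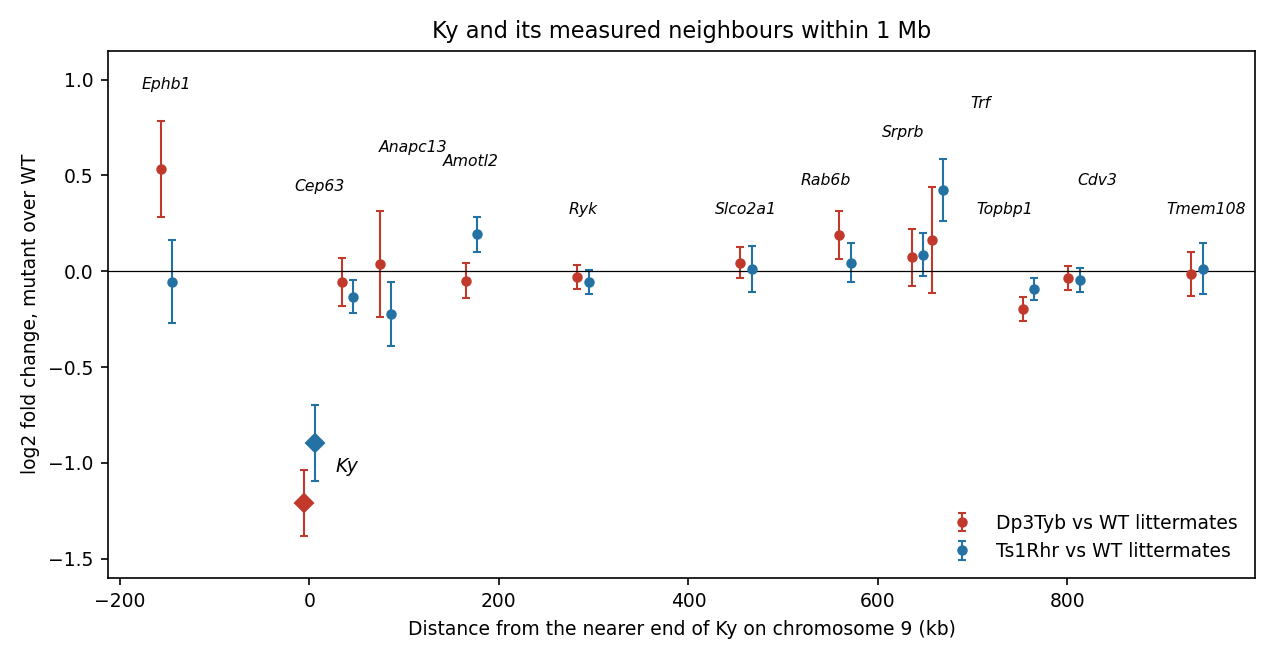
Log2 fold change, mutant over WT littermates, against distance in kb from the nearer end of Ky, with genes upstream at negative distances. Circles are the 12 neighbours that passed the filter, diamonds are Ky, bars are SE from limma, and red and blue are Dp3Tyb and Ts1Rhr. The neighbours lie between -0.22 and 0.53, and Ky lies at -1.21 and -0.90.

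Ky varied among hearts of the same genotype, and each gene was compared with it in this respect. The group mean was taken from log2(value + 1) in each of the 4 groups, and Pearson r with Ky was computed over the 20 hearts for 14604 genes. All genes of a heart were measured in the same library at the same depth, so r is a description. Its median over all genes was -0.01, with quartiles of -0.14 and 0.13, and 35 genes had r above 0.7 and 9 below -0.7.

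The genes most like Ky were Cpox, an enzyme of haem synthesis (r = 0.819), Isca1, which assembles mitochondrial iron-sulphur clusters (0.799), and Cnot8, a deadenylase of the CCR4-NOT complex (0.798). Next were Mybpc2, the fast skeletal myosin binding protein C (0.793), and Ptgds, a prostaglandin D synthase (0.791). They were followed by Asb11 (0.778), the connexin gene Gja3 (0.771), the ER-phagy receptor Retreg1 (0.770), uridine phosphorylase Upp1 (0.766) and the antisense transcript Atcayos (0.765). Whether reads were counted by strand is not given in the sources used here, so Atcayos cannot be told apart from the gene it overlaps. Of these 10 genes 4 were also among the 10 highest by Spearman's rho.

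All 10 rested in part on WT replicate 5 of the Ts1Rhr cohort, the heart with the highest Ky. In Ptgds this heart had 129 normalised reads, where the other 4 WT hearts of its group had 14.1 to 26.8. In Mybpc2 it had 102, against 39.1 to 61.2. Without it r fell to between 0.598 and 0.722 for the 10 genes, Cpox was still the most like Ky, and 3 of the 10 were still among the 10 highest. Within cohorts r of Cpox was 0.696 in Dp3Tyb and its littermates and 0.914 in Ts1Rhr and its littermates (10 hearts each).

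The differences of these 10 genes between mutant and WT hearts were small beside that of Ky. Of the 10, 7 were lower and 3 higher in Dp3Tyb, with a median log2 difference of -0.05, and 4 were lower in Ts1Rhr, with a median of 0.04. None was called by limma, DESeq2 or edgeR in either strain, and 0 had an unadjusted limma p below 0.05. Limma called 0.0542% of all genes in Dp3Tyb and 0.0269% in Ts1Rhr, and 2.8% and 5.52% had an unadjusted p below 0.05. Mybpc2 differed by 0.30 in Dp3Tyb and 0.18 in Ts1Rhr, and Cpox by 0.06 and 0.05. The lowest was Ptgds in Dp3Tyb (-0.36, with -0.17 in Ts1Rhr) and Atcayos in Ts1Rhr (-0.18, with -0.22 in Dp3Tyb).

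The genes that ran most opposite to Ky were Foxp4, a forkhead transcription factor (r = -0.806), the glypican gene Gpc2 (-0.780), ENSMUSG00000092329 (-0.750), Yeats2, a histone acylation reader (-0.744), and Lpar2, a receptor for lysophosphatidic acid (-0.730). With single hearts left out, r weakened at most to -0.676, -0.728, -0.674, -0.530 and -0.606 in turn. For Foxp4, Yeats2 and Lpar2 the heart left out was WT replicate 5 of the Ts1Rhr cohort. Among the lists, the muscle creatine kinase Ckm had r = 0.732, Nrap had 0.553 and Ldb3 had 0.445. Without WT replicate 5 of the Ts1Rhr cohort these were 0.524, 0.469 and 0.296. They are high members of their lists. The median r was 0.186 for the Z-disc genes (11 of 14 above 0) and -0.014 for the skeletal muscle markers (5 of 10 above 0). The binding partners Flnc (-0.01), Ttn (0.04) and Mybpc1 (0.00) had r near 0.

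**Figure D5:**
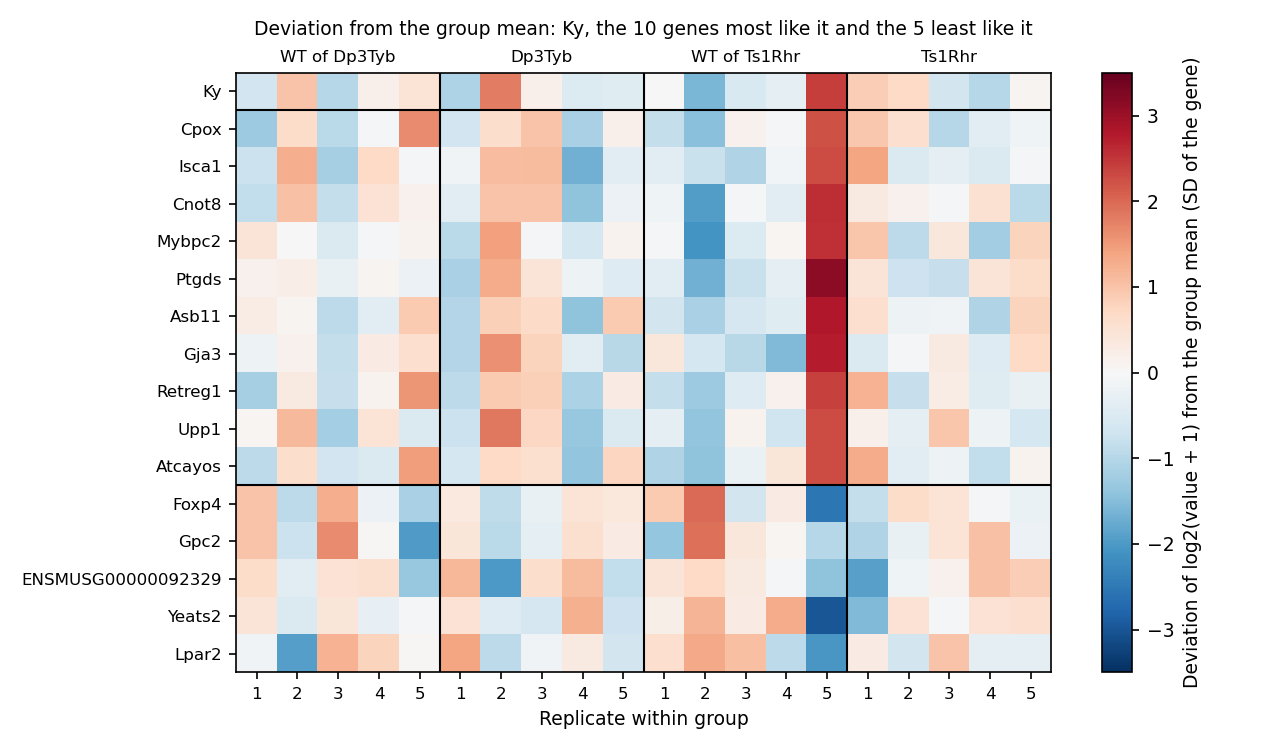
Deviation of log2(value + 1) from the group mean, in SD of each gene, for Ky (top row), the 10 genes with the highest r with it and the 5 with the lowest. Columns are the 20 hearts by group, red is above and blue below the group mean. WT replicate 5 of the Ts1Rhr cohort is the darkest column, red in the 10 genes like Ky and blue in the 5 opposite genes.

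Ky was also set against 13 properties of the hearts after the group means had been taken out, with permutation tests over the 20 hearts (100000 resamples) adjusted over the 13. None passed. With the cardiomyocyte marker score (the mean over markers of log2 value minus the gene mean), r was 0.271 and rho 0.376 (permutation p = 0.211 and 0.119, adjusted p = 0.932 and 0.776). Within cohorts r was 0.573 (Dp3Tyb and littermates) and 0.0135 (Ts1Rhr and littermates), and without the 2 hearts farthest from the median score it was 0.310. With total reads r was 0.141 and rho 0.230 (adjusted permutation p = 0.987 and 0.857), 0.0808 and 0.236 within cohorts, and r was 0.301 without the 2 farthest hearts. It was -0.0194 without WT replicate 5 of the Ts1Rhr cohort and 0.401 without the libraries above 10% mitochondrial reads. With the mitochondrial share r was 0.0245 and rho 0.137 (adjusted permutation p = 0.987 and 0.857), 0.0863 and -0.0407 within cohorts, and r was -0.0440 without the 2 farthest. Without the same heart it was 0.257, and without the same libraries -0.263. With Dyrk1a r was 0.0441 and rho 0.162 (adjusted permutation p = 0.987 and 0.857), 0.125 and -0.0358 within cohorts. It was -0.101 without the 2 farthest hearts, from -0.0402 to 0.218 when single hearts were left out (the highest without WT replicate 5 of the Ts1Rhr cohort), and 0.441 without the libraries above 10% mitochondrial reads (adjusted permutation p = 0.725).

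The largest r was with the liver score, 0.472, with rho 0.457 (permutation p = 0.0355 and 0.0595, adjusted p = 0.461 and 0.774). It rested on the 2 of 8 liver markers with at least 10 normalised reads in at least 5 of the 20 libraries, only 1 of which passed the filter within a cohort. It was 0.833 within the Dp3Tyb cohort and 0.197 within the other, and was 0.273 without the 2 farthest hearts and 0.790 without the libraries above 10% mitochondrial reads (adjusted permutation p = 0.135). For the skeletal muscle score r was -0.0490 and rho 0.0902 (adjusted permutation p = 0.987 and 0.930), with -0.278 within the Dp3Tyb cohort and 0.630 within the other. Without the 2 hearts farthest from the median score it was 0.317, and without WT replicate 1 of the Dp3Tyb cohort, which stood apart in these genes, 0.252. Its sign also turned without WT replicate 2 of that cohort (0.0320). The 7 remaining marker scores had r between -0.251 (lung and foregut) and 0.124 (erythroid cells). Without the 2 farthest hearts the sign turned for the erythroid score (-0.164) and the macrophage score (-0.0427 over all hearts, 0.0890 without them). With single hearts left out, r ran from -0.215 to 0.330 (erythroid), -0.0871 to 0.131 (endothelium), -0.317 to 0.00936 (epicardium) and -0.213 to 0.0828 (macrophage). The cohorts had opposite signs for each score but lung and foregut, as with fibroblasts (-0.557 in the Dp3Tyb cohort, 0.236 in the other).

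The other marker lists were measured as a check of what the hearts held. Limma and edgeR called 0 of their members in either strain, where limma called 0.0542% of all genes in Dp3Tyb and 0.0269% in Ts1Rhr. At an unadjusted limma p below 0.05 were 2 of 9 macrophage genes and 1 of 9 lung and foregut genes in Dp3Tyb, and 5 of 9 and 2 of 9 in Ts1Rhr, with 1 each of the fibroblast and endothelial genes. Over all genes tested the share was 2.8% in Dp3Tyb and 5.52% in Ts1Rhr. The median log2 differences in Dp3Tyb and Ts1Rhr were -0.07 and 0.04 for skeletal muscle, 0.04 and -0.07 for smooth muscle, 0.15 and 0.06 for fibroblasts and cushion mesenchyme, 0.03 and 0.08 for endothelium and endocardium, 0.00 and 0.07 for epicardium, 0.15 and 0.29 for erythroid cells, and 0.25 and 0.31 for macrophages. For lung and foregut they were 1.86 and -1.63, with sums of at most 1016 normalised reads in any heart, and for liver, with 1 gene passing, 0.32 and -0.16. All 10 fibroblast and cushion genes and all 9 macrophage genes were higher in Dp3Tyb, 1 of the latter called by DESeq2, which called 0.23% of all genes there, and in Ts1Rhr 2 of 10 and 1 of 9 were lower. Of the 10 erythroid genes 1 was lower in Dp3Tyb and 0 in Ts1Rhr. The part that these cell types play in the Ky values was not tested.

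Few genes separated mutant from WT hearts in the direction of Ky in both strains. Of 14605 genes that passed the filter in both cohorts, 5 had every mutant heart below every littermate in both (0.0342%), and Ky was 1 of them. The others were Rfx5, a transcription factor of MHC class II genes (log2 differences of -0.45 ± 0.12 and -0.55 ± 0.12), Ddc, the aromatic amino acid decarboxylase (-0.48 ± 0.12 and -0.46 ± 0.13), the linker histone H1f0 (-0.14 ± 0.05 and -0.24 ± 0.06) and the histone methyltransferase Nsd2 (-0.17 ± 0.05 and -0.16 ± 0.05). Ky was the only gene tested in both whose log2 change was at or below its own values of -1.21 and -0.90 in each strain (0.00685%). These genes were chosen for this separation, so their differences are given with no test.

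Ddc had 483 to 624 normalised reads in Dp3Tyb against 667 to 973 in littermates, and 516 to 631 in Ts1Rhr against 669 to 1174. Rfx5 had 307 to 373 against 403 to 611, and 296 to 405 against 428 to 614. Within groups r with Ky was 0.579 for Ddc (0.263 without WT replicate 5 of the Ts1Rhr cohort) and 0.159 for Rfx5 (0.392 without it). In the opposite direction 12 genes outside chromosome 16 had every mutant heart above every littermate in both strains (0.0822%). The 5 largest were the lectin gene Clec4g (1.16 ± 0.27 and 1.14 ± 0.18), the sorting nexin gene Snx20 (0.997 ± 0.219 and 0.955 ± 0.329), Mal, a membrane raft protein gene (1.08 ± 0.17 and 0.84 ± 0.14), Adh6b (0.68 ± 0.17 and 0.63 ± 0.14) and B3gnt3 (0.68 ± 0.20 and 0.60 ± 0.12). These too were chosen for their separation and are given with no test. Snx20 lay near the filter value of 10 in WT hearts. They had 7.48 to 11.7 normalised reads in the Dp3Tyb cohort and 2.69 to 9.70 in the Ts1Rhr cohort. In neither cohort would WT hearts alone have passed the filter, and in the Ts1Rhr cohort Snx20 passed through the mutant hearts only.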

How the data were processed

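RNA of whole E13.5 hearts was sequenced (20 libraries, 4 groups of 5). The deposited values of signal per gene are read counts that the authors divided by a size factor for each library. The submitters' processing notes name Trimmomatic 0.36, STAR 2.5.2a, RSEM 1.2.31, DESeq2 and DESeq, with the build GRCm38; the order of these tools, the annotation and the use of strand are not given in the sources used here. Whole reads were recovered for 100% of values (tolerance 1e-06), and the size factors equalled the median-of-ratios factors over all 20 libraries to within 4.11e-15. Groups came from the genotype labels, and replicate numbers are accession order and only names. Nothing says more of replicates than that they are separate hearts.

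Symbols came from GENCODE vM39 by gene ID (44559 of 48795 IDs, 91.3%), and positions from the RefSeq table of GRCm38.p6. Genes that reached a value of 10 in 5 or more libraries of a cohort were fitted as log2(value + 1) with limma 3.58.1 (R 4.3.3), trended and robust, 2-sided, with Benjamini-Hochberg adjustment over all genes tested and a threshold of 0.05. This scale understates the change of low genes. The limma fit of the Dp3Tyb cohort and the search for genes that vary with Ky were tested on simulated data. Alternatives were DESeq2 1.42.0 and edgeR 4.0.16 on the recovered reads, pseudocounts of 0.1 and 10, no filter, array weights, the mitochondrial share as a covariate, leaving out libraries above 10% mitochondrial reads, leaving out each heart, and scaling to cardiomyocyte markers. The study itself tested with DESeq2.

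Ky and all lists were chosen with earlier results of these data known. Named genes are Ky, Dyrk1a, the neighbours within 1 Mb that passed the filter, list members, the 10 genes with the highest and 5 with the lowest r with Ky, the genes lower without overlap in both strains and the 5 largest that were higher outside chromosome 16. Gm7364, Gm29387 and the marker genes given for single hearts were added after their values had been seen. No set test was made, and the planned test of Ky between the WT groups was left out because the choice of Ky used those values.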

Additional observations from a re-analysis of the deposited data

Results flagged for a closer look

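In 96 groups of 5 hearts, over 24 measures, 15 values stood farther from the rest of their group than Dixon's criterion allows. Chance flags about 1 in 20 groups (5%), or 4.80 of the 96. For Ky, WT replicate 5 of the Ts1Rhr cohort stood apart at 12.4 reads per 1000000, with the next WT heart at 7.03.

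Replicate 5 of the WT littermates of Dp3Tyb had a mitochondrial share of 19.5% (next 5.42%), 690 normalised reads of Cep63 (next 499), 919 of Anapc13 (next 411) and a low Srprb of 502 (next 798). Dp3Tyb replicate 5 had a mitochondrial share of 15.5% (next 6.15%), 3196 normalised reads of Dyrk1a (next 2529), 827 of Anapc13 (next 474), 1536 of Ryk (next 1431) and 15018 of Ttn (next 11315). WT replicate 4 of the Ts1Rhr cohort, with a mitochondrial share of 17.2%, had 926 normalised reads of Anapc13 (next 591) and 1659 of Ryk (next 1511). These 3 hearts are the libraries with the highest mitochondrial share in their groups, and the part of that share in the values was not tested. Ky in them was 141, 50.4 and 105, inside the range of its groups.

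WT replicate 1 of the Dp3Tyb cohort had a skeletal muscle score of 1.54 (next 0.137). Dp3Tyb replicate 4 had a cardiomyocyte score of -0.33 (next -0.0477), with Ky at 49.9. Ts1Rhr replicate 3 had the lowest Ryk of its group, 1321 normalised reads (next 1476).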

How the results depend on the processing

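Ky stayed lower in both strains under each alternative run. The largest shift came when the libraries above 10% mitochondrial reads were left out of the Ts1Rhr cohort (-1.31 in place of -0.90, with 5 hearts left). That kept WT replicates 3 and 5 (Ky at 100.3 and 180.3) and Ts1Rhr replicates 3, 4 and 5. It took out Ts1Rhr replicates 1 and 2, the mutants with the highest Ky (70.7 and 68.3) and the label of heart defects. The cause of the shift was not tested. Leaving out these libraries also turned the sign of the difference between the WT groups (0.11 in place of -0.19, with 6 hearts). Leaving out single hearts gave -1.34 to -1.13 in Dp3Tyb, -1.01 to -0.72 in Ts1Rhr and -0.37 to -0.08 between the WT groups. The other values of these 3 differences moved by less than 1 SD. Without those libraries the r of Ky was 0.790 with the liver score, 0.441 with Dyrk1a and -0.536 with the epicardium score, in place of 0.472, 0.0441 and -0.162. No neighbour of Ky was called in either mutant comparison, and none of the 13 relations passed, under any alternative run; between the WT groups, array weights called 4 of the 12 neighbours. The number of genes called in Dp3Tyb was 8, but 34 by DESeq2, 57 with array weights, 45 with the mitochondrial share as covariate, 30 without the libraries above 10% and 4 with no filter. It was 2 without each of WT replicates 1, 2 and 3 or Dp3Tyb replicates 1, 3 and 4, 3 without WT replicate 4, 4 without Dp3Tyb replicate 2 and 13 without WT replicate 5. In Ts1Rhr it was 4, but 25 by DESeq2 and with the covariate, 16 with array weights and 0 without the libraries above 10%. It was 1 without each of WT replicates 2, 3 and 4 or Ts1Rhr replicates 1, 4 and 5, 2 without WT replicate 1 and 6 without WT replicate 5. Between the WT groups it was 0, with 3284 under array weights, 19 by DESeq2, 9 without WT replicate 5 of the Dp3Tyb cohort and 1 with the mitochondrial share as covariate. No paired analysis was made because the labels do not say which hearts belong together. WT and mutant hearts alternate in accession order, and replicate 5 of both groups in the Dp3Tyb cohort had a high mitochondrial share (19.5% and 15.5%). Whether neighbours in that order are alike was not tested. Ky rests on as few as 36 reads in 1 heart, and 5 hearts a group limit every comparison.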
